A study of Homo sapiens with 6 samples.

Results

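The CDK inhibitors are a family of 7 genes, taken by name from 18701 genes measured: the CIP/KIP members CDKN1A, CDKN1B and CDKN1C and the INK4 members CDKN2A, CDKN2B, CDKN2C and CDKN2D. Their transcript levels were followed in HT29-tsp53, derived from the human colorectal adenocarcinoma line HT-29 by adding a mouse p53 transgene (V135A) whose product works at 32 °C and not in warmer cultures. RNA from 3 groups of cells was read on 6 arrays (Affymetrix Human Gene 1.0 ST), with 1 array of each group in experiment 1 and again in experiment 2. In the p53 off group, cells were kept warm throughout; in p53 on they spent 16 h at 32 °C; in p53 on then off, called recovery here, 16 h at 32 °C were followed by 6 h of return to warmth. The warm temperature is 38 °C in some label fields and 37 °C in others, and 1 field of the recovery samples names 32 °C. All 3 groups carried the transgene, and since only a shift of temperature switched it, effects of p53 and of temperature cannot be told apart. Nothing in the labels says how the 2 experiments differed, so p-values measure the spread between these arrays, which may be partly technical.

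CDK inhibitors are small proteins that hold back the cyclin-dependent kinases, the enzymes that drive cells through division. CIP/KIP proteins bind complexes of a cyclin with its kinase, whereas INK4 proteins bind CDK4 and CDK6 and keep D-type cyclins from activating them. CDKN1A, which encodes p21, is a direct target gene of p53 and is known for carrying out the G1 arrest that p53 imposes; the other members are mainly known for control by other signals and by protein turnover.

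Levels are log2 signals, so a difference of 1 is a doubling. A gene's level on an array is the median of its exon-level probe sets that carry only its symbol; levels of different genes or probe sets are not compared with each other, since probes differ in brightness. The 7 members had 52 probe sets. A lowest 25% of genes by mean signal (mean log2 under 3.62) was not tested, which left 14025 genes and 6 members; CDKN2C, with a mean of 3.33, was not tested. Differences are given with standard errors from limma (n = 2 arrays per group), and a gene was called at a Benjamini-Hochberg adjusted p under 0.05 over all genes tested. The colon label was checked against epithelial markers, of which 11 of 12 had mean signals above the filter value (CDH17 was below it on all 6 arrays), with array medians of that list of 8.72 to 9.49 in p53 off, 8.78 to 9.57 in p53 on and 8.71 to 9.30 in recovery. Of 6 leukocyte markers on the array, 4 were above that value on all 6 arrays: CD14 (4.70 to 5.70), CD68 (5.72 to 6.65), ITGAM (5.04 to 5.46) and LYZ (10.81 to 11.52). PTPRC and CD3E, which define leukocytes and T cells, were below it on every array. The array medians of the leukocyte list were 5.08 to 5.34 in p53 off, 5.09 to 5.22 in p53 on and 5.29 to 5.46 in recovery, and their part in the results was not tested. Of the fibroblast markers 5 of 7 passed the filter value, with DCN and LUM below, and 1 of 4 endothelial markers did. Pearson's r between arrays, across genes that are not independent, lay between 0.911 and 0.975.

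CDKN1A was the member whose level rose when p53 was switched on and fell again in recovery. Its promoter is shown first because it belongs to the only called member, beside that of CDKN1B, a CIP/KIP relative that was not called. Both sequences are the 250 bases before the gene's start in RefSeq on GRCh38.p14, at chr6:36678464-36678713 (plus strand) for CDKN1A and chr12:12717118-12717367 (plus strand) for CDKN1B. Capitals mark GGGCGG, searched on both strands, the core of the GC box that SP1-type factors are known to bind.
CDKN1A: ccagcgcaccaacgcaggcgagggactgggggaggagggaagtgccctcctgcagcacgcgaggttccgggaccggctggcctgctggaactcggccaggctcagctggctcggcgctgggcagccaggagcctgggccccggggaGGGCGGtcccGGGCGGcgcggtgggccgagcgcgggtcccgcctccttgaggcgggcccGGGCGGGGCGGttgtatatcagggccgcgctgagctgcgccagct
CDKN1B: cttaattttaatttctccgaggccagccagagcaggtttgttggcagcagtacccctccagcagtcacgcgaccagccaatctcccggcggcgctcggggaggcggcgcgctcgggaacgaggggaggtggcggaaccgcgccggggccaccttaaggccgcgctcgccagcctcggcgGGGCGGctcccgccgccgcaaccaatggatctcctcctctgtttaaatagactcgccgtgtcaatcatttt
The CDKN1A window held 4 matches of GGGCGG, of which 2 overlap, and had a GC content of 76.4%; the CDKN1B window held 1 match, at a GC content of 64.4%. Over 35116 RefSeq promoter windows of the same length, 42.6% held at least 1 match. Neither window held TATAAA (present in 10.7% of windows), the p53 half-site (5.57%) or the p53 full site (0.0256%). As background, the p53 sites described for CDKN1A lie further upstream than this window. The 7 further windows matched to CDKN2A, CDKN2B, CDKN2C and CDKN2D held from 0 to 5 matches of GGGCGG, and none held TATAAA or either p53 motif. The absence of a match says only that these letters are not in the window.

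On the p53 off arrays CDKN1A stood at log2 4.83 in experiment 1 and 4.99 in experiment 2. The p53 on arrays read 8.32 and 7.91, and the recovery arrays 4.92 and 4.78. Both p53 on arrays were well above the other four in each experiment, and recovery overlapped p53 off. The rise from p53 off to p53 on was 3.21 ± 0.22 on the log2 scale (95% interval 2.68 to 3.73), a 9.23-fold increase with an adjusted p of 0.00334 in limma's test. It was 3.49 within experiment 1 and 2.92 within experiment 2, and its difference ranked 9 from the highest of the 14025 genes. Leaving out p53 off replicate 1 or replicate 2 put the adjusted p at 0.0560 and 0.0655, past the threshold, while the call held in the other 4 fits that left out 1 array.

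**Figure D1:**
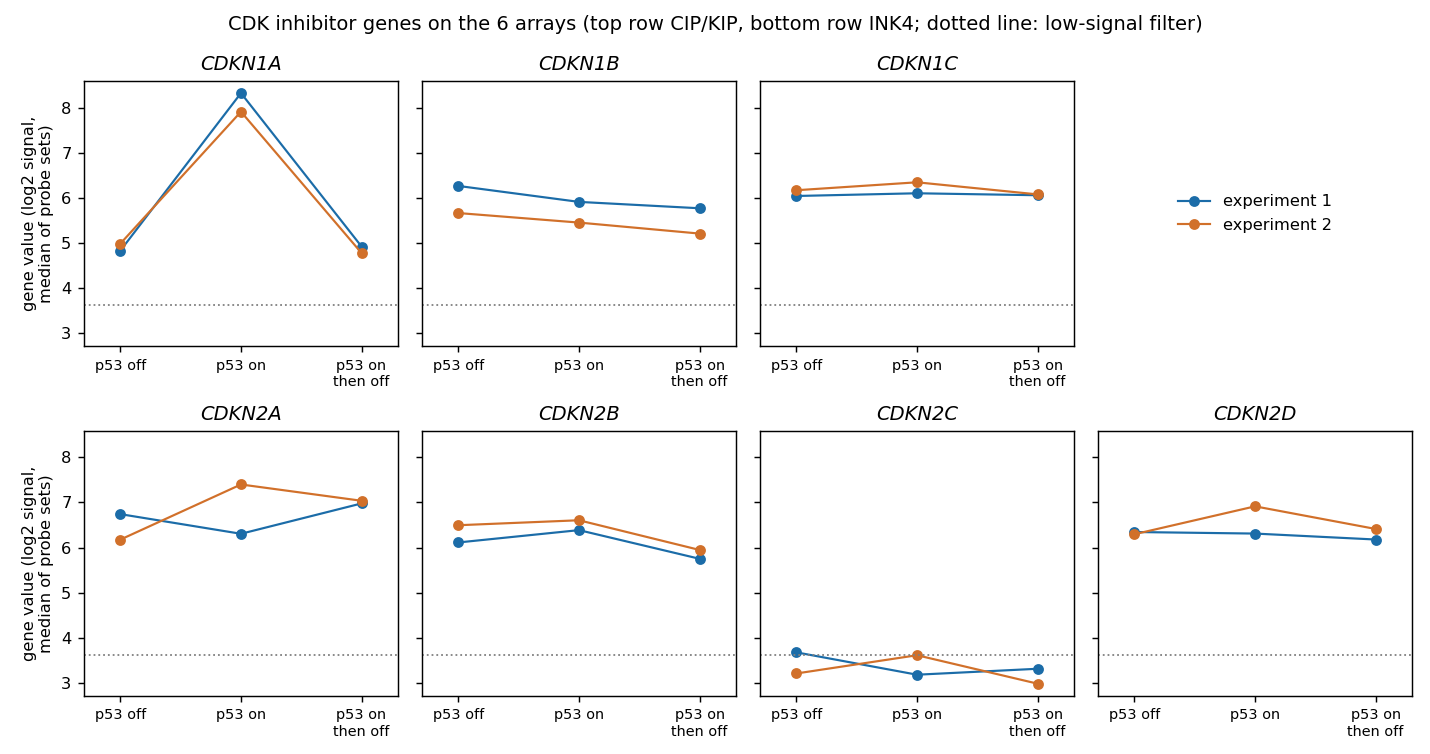
Log2 level (vertical axis) of each of the 7 CDK inhibitor genes on the 6 arrays, by group (horizontal axis); each point is 1 array, each line joins the 3 arrays of 1 experiment, the dotted line is the filter value, and levels of different genes are not comparable. CDKN1A rises from 4.83 and 4.99 to 8.32 and 7.91 and returns to 4.92 and 4.78, while each other member keeps its arrays within a much narrower range.

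From p53 on to recovery CDKN1A fell by 3.26 ± 0.22 on the log2 scale (95% interval of the difference -3.79 to -2.74), which is 9.61-fold lower after 6 h, with an adjusted p of 0.00774 in limma's test. In a limma fit that took the experiment as a replicate block, the adjusted p was 0.000136. The difference was -3.40 in experiment 1 and -3.13 in experiment 2, and it ranked 4 from the lowest of all genes tested. This comparison shares its p53 on arrays with the one before, so the rise and the fall are not independent. The call held without p53 on replicate 1 (adjusted p = 0.0431) or replicate 2 (0.0492). It was lost without either p53 off array (0.05005 and 0.0509), without either recovery array (0.0979 and 0.0972), and in a fit of the 2 compared groups alone (0.0503).

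Recovery and p53 off differed for CDKN1A by -0.06 ± 0.22 (95% interval -0.59 to 0.47, adjusted p = 0.999 in limma's test). The experiments gave 0.09 and -0.21. Equality is not shown, since the interval allows a residual of 0.47 above p53 off or 0.59 below it.

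The single probe sets of CDKN1A differed widely in the size of the rise. Differences between p53 on and p53 off ran from 0.16 to 4.79 on the log2 scale. Of the 7, 6 were higher in both experiments, as were 30% of all probe sets tested. These 6 include 8119090, which passed the low-signal filter only through its p53 on arrays. Probe set 8119094 read 5.48 and 5.31 in p53 off, 10.55 and 9.82 in p53 on, and 5.32 and 4.78 in recovery. Its rise of 4.79 ± 0.37, or 27.8-fold, had an adjusted p of 0.0316 over the 168240 probe sets tested in limma. Probe set 8119093 read 5.93 and 5.64 in p53 off, 10.90 and 10.07 in p53 on, and 6.18 and 5.50 in recovery. It rose by 4.70 ± 0.40, 26-fold, at an adjusted p of 0.0443 in limma. In both probe sets the p53 on arrays lay far above every other array.

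Those were the 2 of 7 CDKN1A probe sets called in p53 on against p53 off, where 0.0434% of all probe sets tested were called (0.0422% as higher). Fits without any 1 of the arrays called 0 of them, and fits without the signal filter or of the 2 compared groups alone also called 0. Probe set 8119095 read 4.38 and 3.59 in p53 off, 9.14 and 8.19 in p53 on, and 3.89 and 2.95 in recovery. Its difference of 4.68 ± 0.51 was as wide as those of the called pair, but its adjusted p was 0.0723; in a fit that took the experiment as a replicate block it was 0.031, making 3 of 7 called against 0.0458% of all probe sets (0.0446% as higher).

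Further along the range, probe set 8119092 read 4.83 and 4.99 in p53 off, 8.14 and 7.91 in p53 on, and 4.92 and 5.24 in recovery, a difference of 3.12 ± 0.29 (adjusted p = 0.0505 in limma). Probe set 8119091 read 6.16 and 5.86, then 8.32 and 7.65, then 6.40 and 6.12, and differed by 1.97 (adjusted p = 0.16 in limma). In both, the p53 on arrays stood above all others although neither passed the threshold.

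The remaining pair showed smaller or less even differences. Probe set 8119090 read 3.87 and 2.36 in p53 off, 6.25 and 3.57 in p53 on, and 3.38 and 3.51 in recovery. Its p53 on and p53 off arrays overlapped, and the difference of 1.79 had an adjusted p of 0.563 in limma. Probe set 8119089 read 3.98 and 3.76, then 3.90 and 4.16, then 3.69 and 2.69, and its difference of 0.16 had an adjusted p of 0.94 in limma. Both were dim, near the filter value of 3.57 for probe sets. Probe set 8119090 passed that filter only through its p53 on arrays, as its means were 3.12 in p53 off and 3.45 in recovery. Outside p53 on, the arrays of 8119089 also averaged under that value, with means of 3.87 in p53 off and 3.19 in recovery. The positions of the probe sets within the transcript were not used here.

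Because probe sets differed, the gene's median did not come from the same probe set on every array. It was probe set 8119092 on 4 arrays, 8119091 on the p53 on array of experiment 1 and 8119094 on the recovery array of experiment 2. The median therefore sits between the brightest and the dimmest response, and its 9.23-fold rise is smaller than the 25.6-fold to 27.8-fold differences of the 3 widest probe sets. Some within-experiment values of the gene set different probe sets against each other. The rise of 3.49 in experiment 1 sets 8119091 against 8119092, whose own rises there were 2.16 and 3.31. The -0.21 of recovery against p53 off in experiment 2 sets 8119094 against 8119092, whose own differences there were -0.53 and 0.26.

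**Figure D2:**
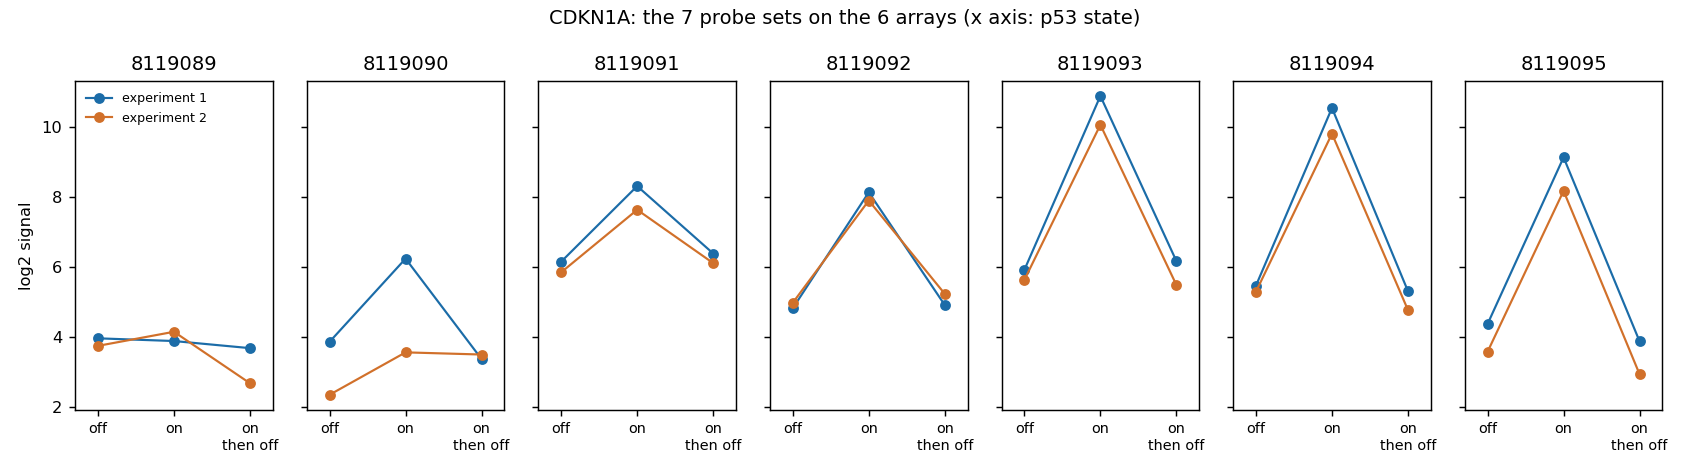
Log2 signal (vertical axis) of the 7 single CDKN1A probe sets on the 6 arrays, by group (horizontal axis), with 1 line per experiment. Probe sets 8119093, 8119094 and 8119095 climb by 4.68 to 4.79 in p53 on and drop back in recovery, whereas 8119089 differs by 0.16.

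In recovery against p53 on, all 7 CDKN1A probe sets had lower values in both experiments, with no overlap between the groups. Of all probe sets tested, 29.1% were lower in both experiments and 16% were lower with no overlap. The differences ran from -5.25 for 8119095 to -0.84 for 8119089, with -5.14 for 8119094 (35.2-fold lower) and -4.65 for 8119093 (25-fold lower). By limma's adjusted p, 0 of the 7 were called, as were 0% of all probe sets tested; 5 of the 7, and 8.53% of all 168240, had an unadjusted p under 0.05. With an intensity trend and robust moderation in limma 2 were called, and with the dimmest 50% left out 1 was. Against p53 off, the recovery differences ran from -0.67 to 0.33 and limma called 0 of 7, with 0 at an unadjusted p under 0.05 (1 with the replicate block).

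Of the 6 members tested, CDKN1A was thus the 1 called in p53 on against p53 off, where 1.48% of all genes were called (0.898% as higher and 0.585% as lower). With the replicate block it was again the 1 called (adjusted p = 7.68e-05), while the share of all genes called rose to 11.5%. The other 5 tested members differed by -0.28 to 0.39 on the log2 scale, with adjusted p-values of 0.676 to 0.855. The median over the 6 was 0.24, beside 0.02 over all genes tested.

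In recovery against p53 on, 1 of 6 members was again called, CDKN1A as lower, where 0.428% of all genes were called (0.285% as lower) and 7.24% with the replicate block. The members' median was -0.25, beside 0.02 over all genes. In recovery against p53 off, limma called 0 of 6 members and 0.0285% of all genes; 0 members had an unadjusted p under 0.05, beside 5.32% of all genes. With the block 0 were called, against 0.599% of all genes, and 2 members, CDKN1B and CDKN2B, had an unadjusted p under 0.05, beside 13% of all genes. The members' median there was -0.05, beside 0.03.

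Both experiments gave the same sign for 4 of the 6 tested members in p53 on against p53 off, 5 in recovery against p53 on and 3 in recovery against p53 off, where the shares over all genes were 65.1%, 66.2% and 61%. Groups did not overlap for 1, 3 and 2 of the 6 members, beside 43.2%, 39.5% and 35% of all genes. Over 6 members these counts are given as a description and not read as a result.

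**Figure D3:**
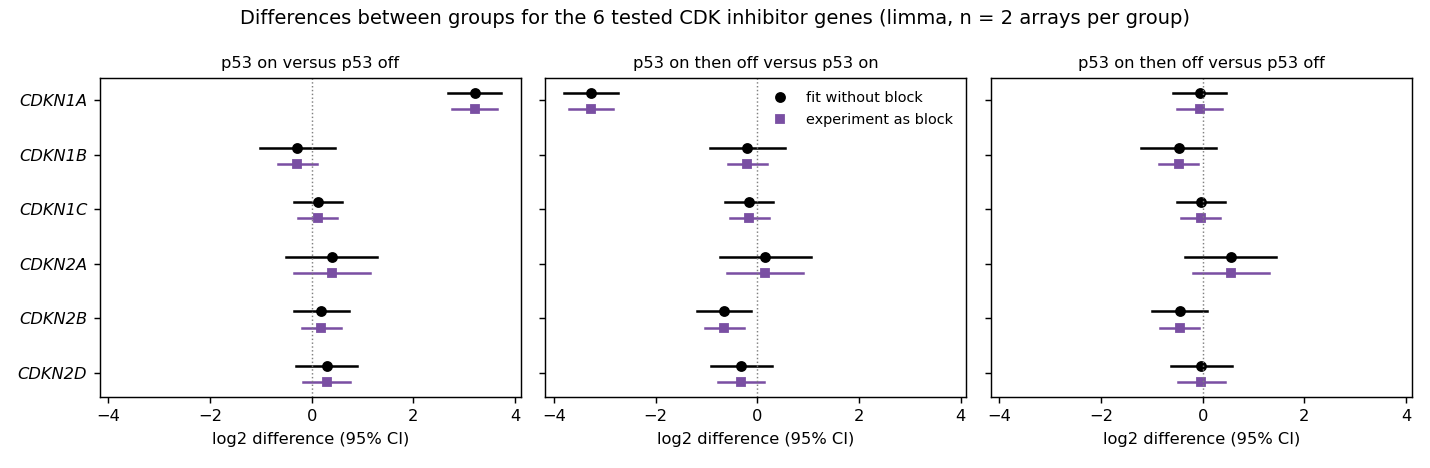
Log2 difference with its 95% interval (horizontal axis) for each CDK inhibitor gene (vertical axis) in the 3 comparisons; black circles are the fit without the block, purple squares the fit with it, n = 2 arrays per group, and CDKN2C is not drawn because it was not tested. Of the 6 genes, CDKN1A has intervals far from 0, at 2.68 to 3.73 in p53 on against p53 off and -3.79 to -2.74 in recovery against p53 on.

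CDKN1B encodes p27, which restrains CDK2 complexes and is cleared through SKP2. It read 6.27 and 5.67 in p53 off, 5.91 and 5.45 in p53 on, and 5.77 and 5.21 in recovery. Experiment 2 was lower than experiment 1 in every group, by 0.46 to 0.60, and the groups overlapped on the pooled arrays. The difference between p53 on and p53 off was -0.28 ± 0.31 (95% interval -1.02 to 0.46), -0.35 and -0.21 within the experiments. Between recovery and p53 off it was -0.47 ± 0.31 (95% interval -1.21 to 0.26), and the experiments gave -0.49 and -0.45. With the replicate block that last difference had an unadjusted p of 0.0207 in limma but an adjusted p of 0.285. Of the 6 CDKN1B probe sets, 5 were lower in recovery than in p53 off in both experiments, as were 27.1% of all probe sets tested, and the median of their differences was -0.62.

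CDKN1C encodes p57, the CIP/KIP protein best known from development and genomic imprinting. It read 6.04 and 6.17 in p53 off, 6.10 and 6.35 in p53 on, and 6.06 and 6.08 in recovery. All arrays lay close together. The difference was 0.12 ± 0.20 from p53 off to p53 on (95% interval -0.35 to 0.59) and -0.16 ± 0.20 from p53 on to recovery (95% interval -0.63 to 0.32). In the latter the recovery arrays lay just below both p53 on arrays.

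CDKN2A encodes the INK4 protein p16 and, from another reading frame, ARF, which protects p53 from MDM2; the probe sets were not assigned to either transcript here. The gene read 6.74 and 6.18 in p53 off, 6.31 and 7.40 in p53 on, and 6.98 and 7.04 in recovery. The p53 on arrays lay apart, with experiment 2 higher by 1.09, and the recovery arrays lay above both p53 off arrays. P53 on against p53 off gave 0.39 ± 0.38 (95% interval -0.50 to 1.29), with opposite signs in the experiments, -0.44 and 1.22. Recovery against p53 off gave 0.55 ± 0.38 (95% interval -0.34 to 1.44, adjusted p = 0.999 in limma).

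Single probe sets of CDKN2A mostly pointed the other way in recovery. The gene's median was probe set 8160448 on 5 of 6 arrays, and the direction of the gene value follows it. Of the 9 probe sets, 6 were lower in recovery than in p53 off in both experiments, as were 27.1% of all probe sets tested. The median of the probe sets' own differences was -0.17, against 0.55 for the gene. Taking the mean of the probe sets instead of their median gave -0.25. Probe set 8160443 read 8.47 and 8.59 in p53 off, 8.85 and 7.79 in p53 on, and 7.29 and 7.04 in recovery, both recovery arrays being lowest. Its difference of -1.37 from p53 off had an unadjusted p of 0.0129 and was not called by limma. In recovery against p53 on the gene gave 0.16, while 8 of 9 probe sets had a lower mean in recovery. In both experiments 5 of them were lower, as were 29.1% of all probe sets tested. No direction can therefore be given for CDKN2A in recovery.

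CDKN2B encodes p15, an INK4 protein known as a target of TGF-beta signalling, and lies beside CDKN2A on chromosome 9. It read 6.11 and 6.50 in p53 off, 6.39 and 6.61 in p53 on, and 5.75 and 5.95 in recovery. Both recovery arrays were below all 4 others. From p53 on to recovery the difference was -0.65 ± 0.23 (95% interval -1.18 to -0.11), -0.63 and -0.66 within the experiments. Its unadjusted p was 0.0241 and its adjusted p 0.292 in limma, 0.057 with the replicate block, so it was not called. Of its 6 probe sets, 4 had a lower mean in recovery than in p53 on, 2 of them in both experiments, as had 29.1% of all probe sets tested. The mean of the probe sets gave a difference of -0.17, and the median of their own differences was -0.08. Against p53 off, recovery differed by -0.45 ± 0.23 (95% interval -0.99 to 0.08), and 4 of 6 probe sets were lower in both experiments, as were 27.1% of all probe sets tested. In p53 on against p53 off the difference was 0.19 ± 0.23 (95% interval -0.34 to 0.72). There 3 of the 6 probe sets had a higher mean in p53 on and 3 a lower one, and the median of their own differences was -0.06.

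CDKN2C encodes the INK4 protein p18. It read 3.68 and 3.21 in p53 off, 3.19 and 3.62 in p53 on, and 3.32 and 2.99 in recovery, close to or below the filter value of 3.62. The groups overlapped in p53 on against p53 off, and 4 of its 10 probe sets passed the filter. The untested differences were -0.05 from p53 off to p53 on, with -0.49 and 0.40 in the experiments, and -0.25 from p53 on to recovery, with 0.13 and -0.63. In a fit without the signal filter it was not called in any comparison (adjusted p-values of 0.870 to 0.999 in limma).

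CDKN2D encodes the INK4 protein p19. It read 6.35 and 6.30 in p53 off, 6.31 and 6.91 in p53 on, and 6.18 and 6.41 in recovery. Only the p53 on array of experiment 2 stood apart. The difference from p53 off to p53 on was 0.29 ± 0.25 (95% interval -0.31 to 0.89), -0.03 and 0.62 within the experiments. From p53 on to recovery it was -0.32 ± 0.25 (95% interval -0.92 to 0.28). Of the 8 probe sets, however, 5 had a higher mean in recovery than in p53 on, and the median of their own differences was 0.10. Against p53 off the gene gave -0.02 in recovery, while 6 of the 8 were higher, with a median of 0.21. No direction can therefore be given for CDKN2D in recovery.

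None of the 5 tested members other than CDKN1A was called in any of the 3 comparisons, with or without the block, and none of their tested probe sets was called either. In p53 on against p53 off the difference seen for CDKN1A lies outside the 95% interval of each of these 5. A doubling lies within the interval of CDKN2A and a halving within that of CDKN1B, and neither lies within those of CDKN1C, CDKN2B and CDKN2D.

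**Figure D4:**
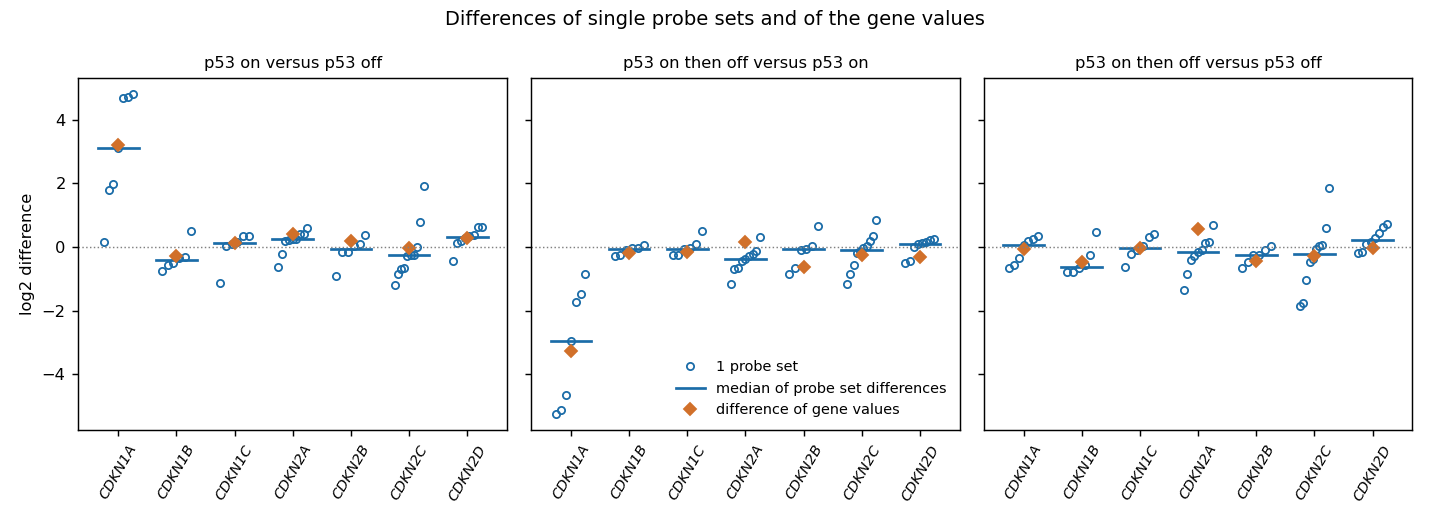
Log2 difference of each single probe set (circles, vertical axis) of the 7 CDK inhibitor genes (horizontal axis) in the 3 comparisons, with the median of a gene's circles as a bar and the difference of the gene values as a diamond. The CDKN1A probe sets spread from 0.16 to 4.79 in p53 on against p53 off and from -5.25 to -0.84 in recovery against p53 on. Those of the other members run from -1.20 to 1.90 and from -1.17 to 0.84, with CDKN2C at each end. Diamond and bar lie on opposite sides of 0 in recovery against p53 off for CDKN2A (0.55 and -0.17), CDKN2D (-0.02 and 0.21) and CDKN1A (-0.06 and 0.05). In recovery against p53 on they do so for CDKN2A (0.16 and -0.39) and CDKN2D (-0.32 and 0.10). In p53 on against p53 off they do so for CDKN2B (0.19 and -0.06).

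The 5 genes whose levels moved most like CDKN1A, by Euclidean distance between mean-centred log2 values over the 6 arrays, were MDM2, GADD45A, GDF15, FAS and BTG2. MDM2, which encodes the ubiquitin ligase that restrains p53, was nearest at a distance of 0.470 (r = 0.995 over 6 arrays). GADD45A, a stress-response gene, followed at 0.563 (r = 0.989), and GDF15, a secreted factor, at 0.708 (r = 0.983). FAS, a death receptor, lay at 0.711 (r = 0.982) and BTG2, an antiproliferative gene, at 0.764 (r = 0.995). BTG2 read 5.87 and 5.69 in p53 off, 8.42 and 8.16 in p53 on, and 5.56 and 5.47 in recovery, a difference of 2.51 between p53 on and p53 off. The 5 genes were chosen by their nearness to CDKN1A on these same arrays, so a rise in p53 on was built into the choice. These correlations describe 6 arrays that fall into 2 levels and carry no test.

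Genes that work with the CDK inhibitors were read from the same tests. Their counts at an unadjusted p under 0.05 stand beside 15.4% of all genes in p53 on against p53 off, 12.3% in recovery against p53 on and 5.32% in recovery against p53 off. In the same order, 1.48%, 0.428% and 0.0285% of all genes were called without the block, and 11.5%, 7.24% and 0.599% with it. Each ± is the standard error of the fit without the block, also where the adjusted p beside it is from the block fit. The kinases and cyclins that CDK inhibitors act on were called in none of the 3 comparisons without the block. Of 13 cyclin and CDK genes, 12 were tested, and limma called 0 higher and 0 lower in p53 on against p53 off, with 3 at an unadjusted p under 0.05; with the block 0 were higher and 3 lower, and the list's median was -0.45 beside 0.02 over all genes. The 3 were CDK6, the D-cyclin kinase (-0.65 ± 0.20, adjusted p = 0.18, with the block 0.0471), CDK1, the mitotic kinase (-0.91, 0.0202 with the block), and CCNE2, an E-type cyclin that activates CDK2. CCNE2 read 5.86 and 5.01 in p53 off, 5.01 and 3.66 in p53 on, and 6.63 and 5.30 in recovery. Within each experiment p53 on was lowest and recovery highest. The difference was -1.10 ± 0.59 to p53 on (adjusted p = 0.448 in limma, 0.0095 with the block) and 1.63 ± 0.59 from p53 on to recovery (0.308, and 0.0034 with the block). In that second comparison the list's median was 0.34, 3 genes had an unadjusted p under 0.05, and with the block 2 genes were called higher, CCNE1 (1.04 ± 0.20, adjusted p = 0.0106) and CCNE2, and 1 lower, the mitotic cyclin CCNB2 (-0.69 ± 0.30, 0.0473).

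Among 8 kinases and phosphatases that switch CDKs on or off, 1 was called in p53 on against p53 off, the CDK-activating phosphatase CDC25A, and the list's median was -0.43. CDC25A read 6.62 and 6.59 in p53 off, 5.52 and 5.12 in p53 on, and 6.77 and 6.62 in recovery. Both p53 on arrays were more than 1 log2 unit below the rest. It fell by 1.28 ± 0.22 on the log2 scale (adjusted p = 0.0494 in limma, 0.00403 with the block), a call lost whichever 1 of the 6 arrays was left out. With the block WEE1, a kinase that inhibits CDK1, was also lower (-0.71 ± 0.32, adjusted p = 0.0289). From p53 on to recovery limma called 0 of the 8, with 2 at an unadjusted p under 0.05; with the block CDC25A was higher (1.37 ± 0.22, adjusted p = 0.0054) and CCNH, a subunit of the CDK-activating kinase, lower (-0.78 ± 0.31, 0.043).

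RB and E2F genes act downstream of the inhibited kinases. Of 13, limma called 0 in p53 on against p53 off, with 6 at an unadjusted p under 0.05 and a median of -0.29. With the block 2 were higher and 4 lower, where 11.5% of all genes were called. RBL1, the RB relative p107, read 7.33 and 7.60 in p53 off, 6.39 and 6.04 in p53 on, and 7.66 and 7.73 in recovery. It was lowest on both p53 on arrays, at -1.25 ± 0.22 (adjusted p = 0.0508 in limma, 0.0066 with the block). E2F8, an E2F repressor, gave -1.32 ± 0.25 (0.0617, and 0.0066 with the block), and TFDP2, an E2F partner, 1.34 ± 0.31 (0.0079 with the block). In recovery against p53 on limma called 0, with 7 at an unadjusted p under 0.05, and the block 2 higher and 2 lower, among them RBL1 (1.48 ± 0.22, adjusted p = 0.0058), E2F8 (0.86, 0.0428) and the repressor E2F7 (-1.02 ± 0.23, 0.0218), with a list median of 0.26.

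Of 13 genes for the turnover of CDK inhibitor proteins, DTL, the substrate receptor known to send p21 for degradation, was called in both directions. It read 7.57 and 7.76 in p53 off, 6.32 and 6.32 in p53 on, and 8.70 and 8.44 in recovery. The p53 on arrays were lowest and the recovery arrays highest, with no overlap among the groups. DTL fell by 1.35 ± 0.20 on the log2 scale in p53 on (adjusted p = 0.0395 in limma, 0.0036 with the block). It rose by 2.25 ± 0.20 in recovery (0.016, and 0.00063 with the block). Leaving out any 1 of the 6 arrays ended both calls. SKP2, the receptor that sends p27 for degradation, read 8.0 and 8.61, then 6.40 and 6.65, then 8.01 and 8.85, again lowest in p53 on. Its differences of -1.78 ± 0.34 and 1.90 ± 0.34 passed only with the block (adjusted p = 0.0015 and 0.002, against 0.0659 and 0.0867 without it). The list's median was -0.25 in p53 on against p53 off and 0.02 in recovery against p53 on.

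Of 19 regulators of CDK inhibitor genes limma called 0 in each comparison (3, 3 and 1 at an unadjusted p under 0.05 in p53 on against p53 off, recovery against p53 on and recovery against p53 off), with medians of 0.10 in p53 on against p53 off and 0.07 in recovery against p53 on. In p53 on against p53 off the block fit called 3 of the 19, all lower, where it called 11.5% of all genes. They were the Polycomb genes BMI1 (-0.77, adjusted p = 0.0268 in limma) and EZH2 (-0.81, 0.0203), known to silence the CDKN2A locus, and TFAP4 (-0.74, 0.037), known as a repressor of CDKN1A. BMI1 was higher again in recovery (0.80, 0.0325 with the block), the 1 of 19 called there, where the block fit called 7.24% of all genes. Over 19 genes these counts are given as a description and not read as a result. In recovery against p53 off limma called 0 genes of any of the 5 lists, with or without the block; of the 65 tested, 7 had an unadjusted p under 0.05 (5.32% of all genes did), and 17 with the block (13% of all genes). The list medians ran from -0.44 to 0.12. The smallest p in each list there belonged to CCNB1 (-1.01), CDC25B (-0.69), RB1 (-0.49), DTL (0.90 ± 0.20) and FOXO3 (0.52), none of which was called.

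**Figure D5:**
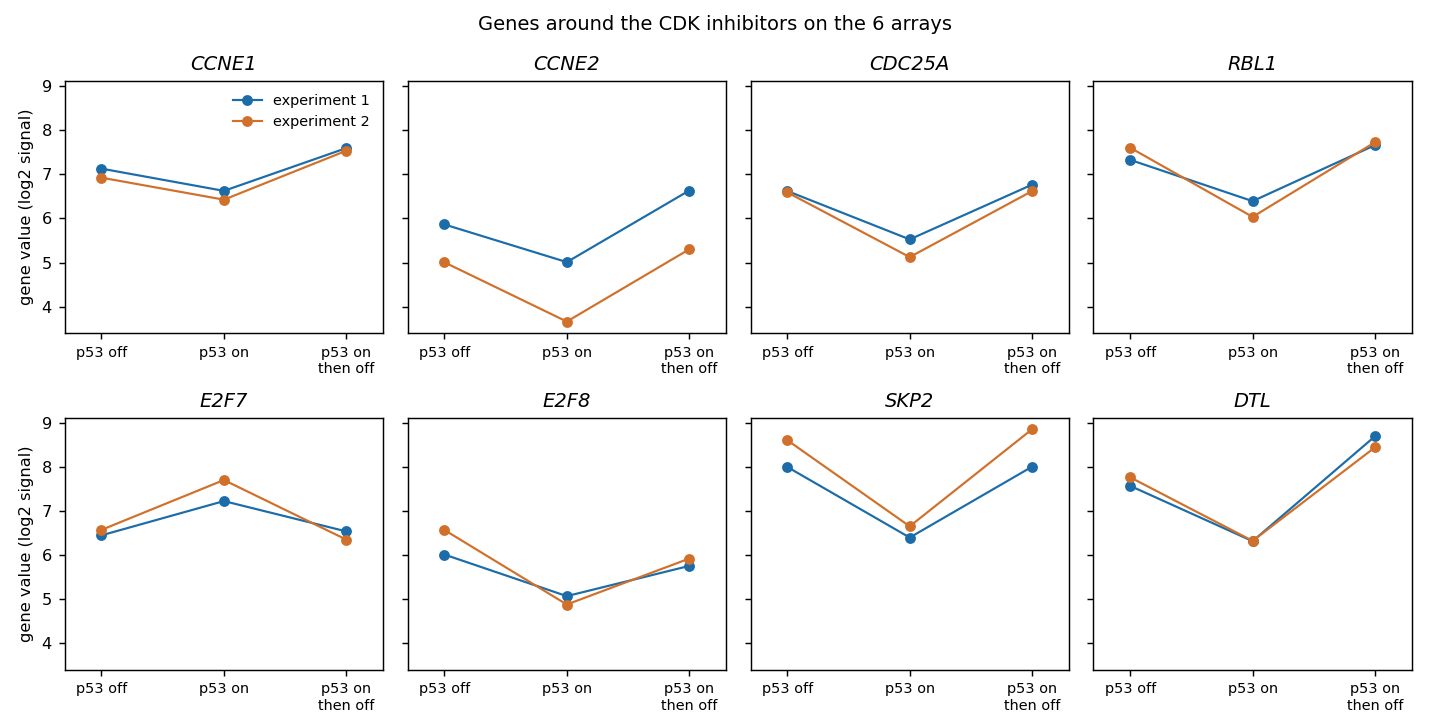
Log2 level (vertical axis) of 8 genes that work with the CDK inhibitors on the 6 arrays, by group (horizontal axis), with 1 line per experiment; levels of different genes are not comparable. DTL, SKP2, CDC25A, RBL1, CCNE1, CCNE2 and E2F8 are lowest in p53 on in both experiments, and E2F7 is highest there.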

How the data were processed

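The deposited table gives 1 value per exon-level probe set and array, taken to be log2 because it runs from -0.85 to 13.14. What program, background correction or normalization the authors used is not given in the sources used here. Array medians lay between 5.24 and 5.31, and no scaling was added. Of 257430 probe sets, 224320 had 1 gene symbol and were used, 10159 had several and 22951 had no gene listed. Gene values were medians over a gene's probe sets (10 for the median gene).

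Groups were compared with limma 3.58.1 (lmFit and eBayes, R 4.3.3), with a factor of 3 groups over 6 arrays, and adjusted by Benjamini-Hochberg over 14025 genes or, separately, 168240 probe sets. The scripts were tested on simulated data. The experiment number in the labels was taken as pairing the arrays; deviations from the group means correlated between arrays of 1 number (r = 0.496, 0.551 and 0.63 across genes). Each ± and each fit that left out 1 array is without this replicate block. Values with the block are given where they change a call or a count, and for some calls that it kept. No exact permutation test of 1 gene can pass the threshold at 2 arrays per group. Alternatives covered the block, the filter, the scaling, the probe set summary, the moderation, the groups fitted and each array left out.

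Named were all members, the up to 3 genes of each list with the smallest p among those called with or without the block (otherwise the 1 with the smallest p), the 5 genes most like a called member, and the neighbours of members. Probe sets of members other than CDKN1A were singled out after their values were seen. Members and lists were chosen with earlier results of these data known. The p53 gene is not analysed here. RefSeq promoter windows matched 6 of 7 members, not CDKN1C.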

Additional observations from a re-analysis of the deposited data

How the results depend on the processing

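With 2 arrays per group only wide differences could pass, and arrays give no read depth. When experiment was fitted as a replicate block, genes called went from 208 to 1607 (p53 on against p53 off), from 60 to 1015 (recovery against p53 on) and from 4 to 84 (recovery against p53 off); the members called and CDKN1A's calls kept their side, and outside the values given with the block above it changed no member's call. Without the filter on low signal 113 genes and 0 CDKN1A probe sets (of 2) were called in p53 on against p53 off. With only the 2 compared groups, 50 genes and 0 CDKN1A probe sets were called there, and in recovery against p53 on 0 genes and 0 members, CDKN1A being at -3.26 with an adjusted p of 0.0503 in limma. The mean of probe sets called 478 and 182 genes. An intensity trend with robust moderation called 4 CDKN1A probe sets in p53 on against p53 off and 2 in recovery against p53 on, where leaving out the lowest 50% called 1. CDKN1A was 3.49 and 2.92 within experiments 1 and 2, and its fall was -2.94 as the median of the probe sets' own differences, an alternative chosen after seeing the data. Leaving out 1 array gave 3.0 to 3.41 for the rise, -3.47 to -3.06 for the fall and -0.14 to 0.02 for recovery against p53 off, with 0 to 1 members called in the rise and the fall and 0 in the last, 0 CDKN1A probe sets, and 3 to 60, 0 to 6 and 1 to 3 genes. CDKN1A was called in 13 of 15 tested settings for the rise (adjusted p 7.68e-05 to 0.0655) and 10 of 15 for the fall. In none of these settings was another member called, and no called value changed sign.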

Other observations

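The nearest measured genes beside each member on its chromosome, by their order in RefSeq, were read from the same tests. Beside CDKN1A lie RAB44, not tested for low signal, and STK38, a kinase gene, which differed by -1.08 ± 0.27 between p53 on and p53 off (-0.85 and -1.32 within the experiments). STK38 was not called without the replicate block and was lower with it (adjusted p = 0.0146 in limma). CDKN2A and CDKN2B neighbour each other, with MTAP, a methionine salvage gene, on the far side of CDKN2A at -0.70 ± 0.25 (adjusted p = 0.0521 with the block) and DMRTA1, not tested, beyond CDKN2B. No neighbour of the other members was called in either fit.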
